A study of Mus musculus with 8 samples.

Results

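The genes of the major histocompatibility complex (MHC) and of antigen presentation were followed in adult male C3H/HeN mice, in the nucleus accumbens (NAc), the part of the ventral striatum that serves motivation and reward. The set held every array probe whose gene name begins with H2-, and those of B2m, Tap1, Tap2, Tapbp, Psmb8, Psmb9, Psmb10, Psme1, Psme2, Cd74 and Ciita. It came to 69 probes of 52 genes, printed as 106 spots, among 55681 probes on the array, and was chosen by gene name. Mice of the maternal separation (MS) group had been removed from the dam daily between postnatal days 2 and 14, while the dam met unpredictable stressors, and litters of the control group had remained with the dam. Both groups were weaned, later worked for palatable food in an operant task and were deprived of food before they were killed. There were 4 MS and 4 control mice and 1 single-colour array per mouse, and the RNA came from tissue punches of frozen slices, which hold neurons, glia and vessels together. Lower RNA per cell and fewer cells of a type cannot be told apart in such tissue.

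MHC class I molecules consist of a heavy chain and the light chain β2-microglobulin (B2m), and show peptides at the cell surface to cytotoxic T cells. The peptides are cut by the proteasome, whose catalytic subunits are exchanged for Psmb8, Psmb9 and Psmb10 in the immunoproteasome, carried into the endoplasmic reticulum by the Tap1-Tap2 transporter and loaded with the help of tapasin (Tapbp). In the brain, neurons and glia make class I molecules, which are known there also for roles in the refinement and plasticity of synapses. Class II molecules, whose chains are escorted by the invariant chain Cd74, are made mainly by microglia, macrophages and other specialised presenting cells.

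Levels are given as the log2 signal of a probe relative to the 75th percentile of its array, so that they can be compared between mice for 1 probe but not between probes. Between 57.3% and 69.7% of all probes were well above background on an array, with the highest share in control replicate 4, no probe was saturated, and all 8 arrays were on 1 slide read in 1 scan. Of the 69 probes, 42 probes of 35 genes exceeded background clearly on 4 or more arrays and were tested with limma, and 39 of these were above background on all 8 arrays. Of the other 27 probes, 17 were above background on no array, among them those of the vomeronasal genes H2-M10.1, H2-M10.2, H2-M10.3 and H2-M10.6. The T cell markers Cd3d, Cd3g and Cd8a and the B cell markers Cd79b and Ms4a1 were too dim to be tested, while Cd3e, Cd4 and Lck of the T cell list and Cd79a of the B cell list were above background on all 8 arrays.

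Antigen presentation genes were mostly lower in MS mice than in control mice, by modest amounts, and none passed the threshold after adjustment. The lowest Benjamini-Hochberg adjusted p of limma among the 42 probes was 0.0908, and 1 of all 33111 probes tested passed 0.05 (0.00302%). At an unadjusted p under 0.05, 18 of the 42 probes (42.9%) were lower in MS mice and 0 were higher, where 7.71% of all tested probes were lower and 6.35% were higher. The MS and control mice did not overlap, with MS lower, for 13 of the 42 probes (31.0%), against 4.91% of all tested probes, while 0 of the 42 lay higher in MS without overlap, against 3.76% of all tested probes. The difference was negative for 34 of the 42 probes, against 49.4% of all tested probes, and its median was -0.24 in the family and 0.00 over all tested probes. Counted by gene, with the brightest tested probe standing for each, 14 of 35 genes were lower at an unadjusted p under 0.05. The 18 include 1 H2-Ab1 probe that was above background on 1 MS and 3 control arrays and so passed the filter mainly through the control group, and 18 of the 39 probes above background on all 8 arrays were lower when these were fitted alone. The count of 18 probes was 11 without MS replicate 3 and 11 without control replicate 3. The probes share mice and tissue, and in part sequence, and are not independent counts.

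**Figure D1:**
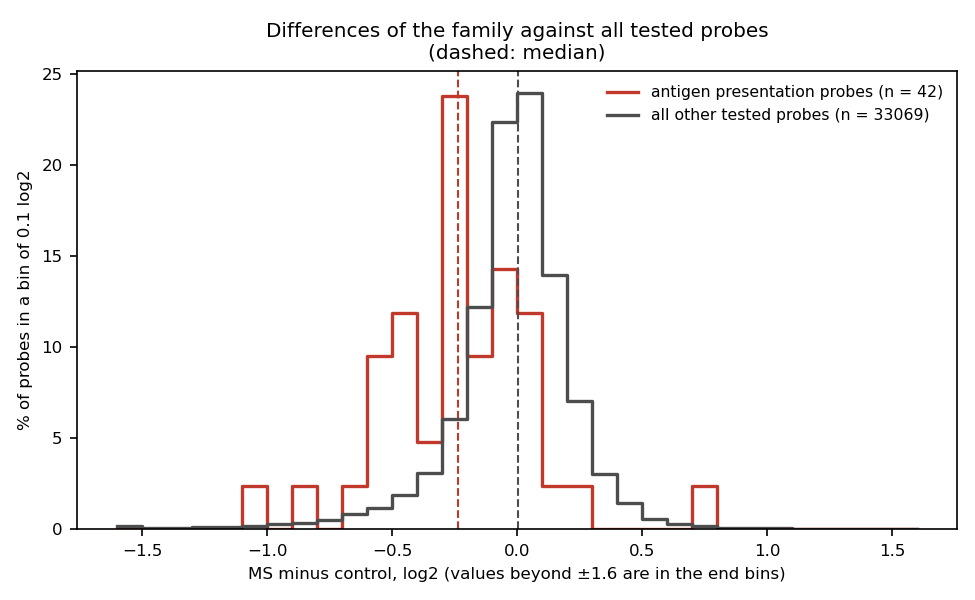
The x axis shows the difference MS minus control on the log2 scale in bins of 0.1, and the y axis the percentage of probes in each bin, for the 42 tested antigen presentation probes (red) and the other 33069 tested probes (grey), with dashed lines at the medians. The red distribution lies to the left, with its median at -0.24 and the grey median at 0.00, and both overlap over most of their range.

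Among the classical class I heavy chains, which present peptides to cytotoxic T cells, H2-K1 and H2-D1 were both measured. The brighter H2-K1 probe read -0.28, 0.03, -0.47 and -0.06 in the 4 MS mice, against 0.16, -0.16, 0.28 and 0.07 in the 4 control mice. The groups overlapped through control replicate 2, which was lower than 2 of the MS mice. The difference was -0.28 (SE 0.13, limma unadjusted p = 0.0662, adjusted p = 0.394). A second H2-K1 probe, printed in 10 spots whose log2 values differed by an SD of only 0.06 to 0.11 within an array, gave -0.43 (SE 0.17, unadjusted p = 0.0354, adjusted p = 0.319). The single H2-D1 probe read -3.48, -3.36, -3.41 and -3.92 in MS mice, against -3.17, -4.02, -3.49 and -3.46 in control mice. H2-D1 thus lay at the same mean level in both groups, with a difference of -0.01 (SE 0.19) whose sign turned in 8 of 20 alternative analyses.

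Class I genes resemble one another, and the mice carry the H-2k haplotype of C3H while the array design and RefSeq follow the H-2b haplotype of C57BL/6J. The probes were therefore compared with each other, and 13 of the 69 shared a run of at least 16 identical bases with another probe of the family. Counting any probe of the array, 23 shared such a run. Within the family, the longest run between tested probes of different genes was 29 bases. It is in capitals in the brighter H2-K1 probe and the H2-T23 probe, both written 5′ to 3′ as on the array.
H2-K1 probe (mm9 chr17:34133984-34134043): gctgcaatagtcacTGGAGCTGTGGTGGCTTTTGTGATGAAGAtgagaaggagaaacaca
H2-T23 probe (mm9 chr17:36167338-36167574): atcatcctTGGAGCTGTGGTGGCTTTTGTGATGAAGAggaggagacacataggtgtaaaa
These probes gave differences of -0.28 (H2-K1) and -0.02 (H2-T23). H2-Q2 and H2-Q10 shared 19 bases, again in capitals.
H2-Q2 probe (mm9 chr17:35460007-35460066): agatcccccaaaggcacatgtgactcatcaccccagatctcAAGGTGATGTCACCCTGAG
H2-Q10 probe (mm9 chr17:35610036-35610095): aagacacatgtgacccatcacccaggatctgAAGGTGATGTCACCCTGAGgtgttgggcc
This H2-Q2 probe gave -0.43 and the H2-Q10 probe -0.14. The 2 H2-K2 probes and the H2-Q7 probe held a common run of 19 bases, shown in capitals within a stretch of 30 bases of each probe.
H2-K2 first probe (mm9 chr17:34111920-34111979): acacaTCTCCTGTGACATCCAGAGacctca
H2-K2 second probe (mm9 chr17:34111941-34112000): acacaTCTCCTGTGACATCCAGAGccctca
H2-Q7 probe (mm9 chr17:35580315-35580374): atgtcTCTCCTGTGACATCCAGAGccctca
The second H2-K2 probe and the H2-Q7 probe shared 28 bases in all, and gave differences of -0.43 and -0.41, where cross-hybridisation was not tested. The H2-Q6 probe shared 54 of its 60 bases with a probe for a class I-like transcript outside the set, which gave -0.14 (SE 0.11). For such shared runs, the signal of the brighter H2-K1 probe and of the H2-T23, H2-K2, H2-Q6 and H2-Q7 probes is uncertain as to its gene. How well any class I probe matches the H-2k sequences of these mice was not tested.

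The Q region held 8 tested probes of 7 genes. At an unadjusted p under 0.05, 5 probes and 4 genes were lower, against 7.71% of all tested probes. H2-Q6, H2-Q7 and H2-Q8 encode Qa-2 antigens in the H-2b haplotype that the array follows. Whether the H-2k mice make them was not tested, and the probe names are those of the array. One H2-Q2 probe read -1.73, -1.59, -1.79 and -1.51 in MS mice, against -1.26, -1.21, -1.22 and -1.21 in control mice. All MS mice were lower than all control mice, with a difference of -0.43 (SE 0.077, adjusted p = 0.0908), or 74.0% of the control level, and a second, brighter H2-Q2 probe, which stands for the gene in counts by gene, gave -0.26 (SE 0.11, adjusted p = 0.34) with overlapping groups. The first, dimmer probe (mm9 chr17:35460007-35460066) maps closer to the H2-Q1 probe (chr17:35461859-35461918) than to the brighter H2-Q2 probe (chr17:35482113-35482172). Its signal is therefore uncertain as to its gene. H2-Q5 read 0.21, 0.27, 0.01 and 0.36 in MS mice, against 0.62, 0.52, 0.53 and 0.53 in control mice. Here too the groups were apart, with a difference of -0.33 (SE 0.086, adjusted p = 0.157). H2-Q7 read -1.70, -1.42, -1.50 and -1.38 in MS mice, against -0.90, -1.34, -0.98 and -1.15 in control mice. The difference of -0.41 (SE 0.11, adjusted p = 0.182) rested on groups that came close to each other at MS replicate 4 and control replicate 2. H2-Q6 (-0.30) and H2-Q8 (-0.27) overlapped between groups, as did H2-Q10 (-0.14), known as a secreted class I molecule of the liver. H2-Q4 was the exception in sign, with 0.17 (SE 0.14, adjusted p = 0.625).

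In the M region, H2-M3 presents peptides that begin with N-formylmethionine, as bacteria and mitochondria make them. H2-M3 read -2.59, -2.22, -2.03 and -2.28 in MS mice, against -1.49, -1.62, -1.77 and -1.58 in control mice. Every MS mouse was below every control mouse, and the mean was 63.2% of the control level (difference -0.66, SE 0.12, adjusted p = 0.0923). Within the first and the second row of the slide, each with 2 MS and 2 control mice, the difference was -0.84 and -0.48. H2-M2, on 10 spots, read -1.44, -1.51, -1.70 and -1.49 in MS mice, against -1.26, -1.36, -1.29 and -1.42 in control mice. This was a small shift without overlap (-0.20, SE 0.079, adjusted p = 0.314). H2-M11 ran the other way by 0.76 (SE 0.42, adjusted p = 0.466), a difference that came mainly from control replicate 1 at -4.58, with the other 7 mice between -3.04 and -1.88.

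H2-K2 and H2-Bl, class I genes set apart because their names carry no Q, T or M, were lower as well. The H2-Bl probe is unmapped on the array, so its region is not settled here. The brighter H2-K2 probe read -0.57, -0.26, -0.72 and -0.29 in MS mice, against 0.10, -0.09, 0.14 and 0.10 in control mice. The groups did not overlap (-0.52, SE 0.12, adjusted p = 0.122). H2-Bl read -3.35, -3.37, -3.89 and -3.62 in MS mice, against -3.05, -3.30, -2.77 and -2.84 in control mice, a difference of -0.57 (SE 0.15, adjusted p = 0.176), or -0.26 with normexp background correction. Among the genes named H2-T, here called the T region, 0 of 4 tested were lower at an unadjusted p under 0.05. These genes, which include H2-T23, whose product Qa-1 is a ligand of inhibitory receptors on natural killer cells, had differences from -0.12 to 0.08 with a median of 0.02. Whether the T region differed from the Q region was not tested. Over all 18 tested class I heavy chain genes the median difference was -0.23, against -0.14 with normexp background correction and -0.093 with the deposited values.

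**Figure D2:**
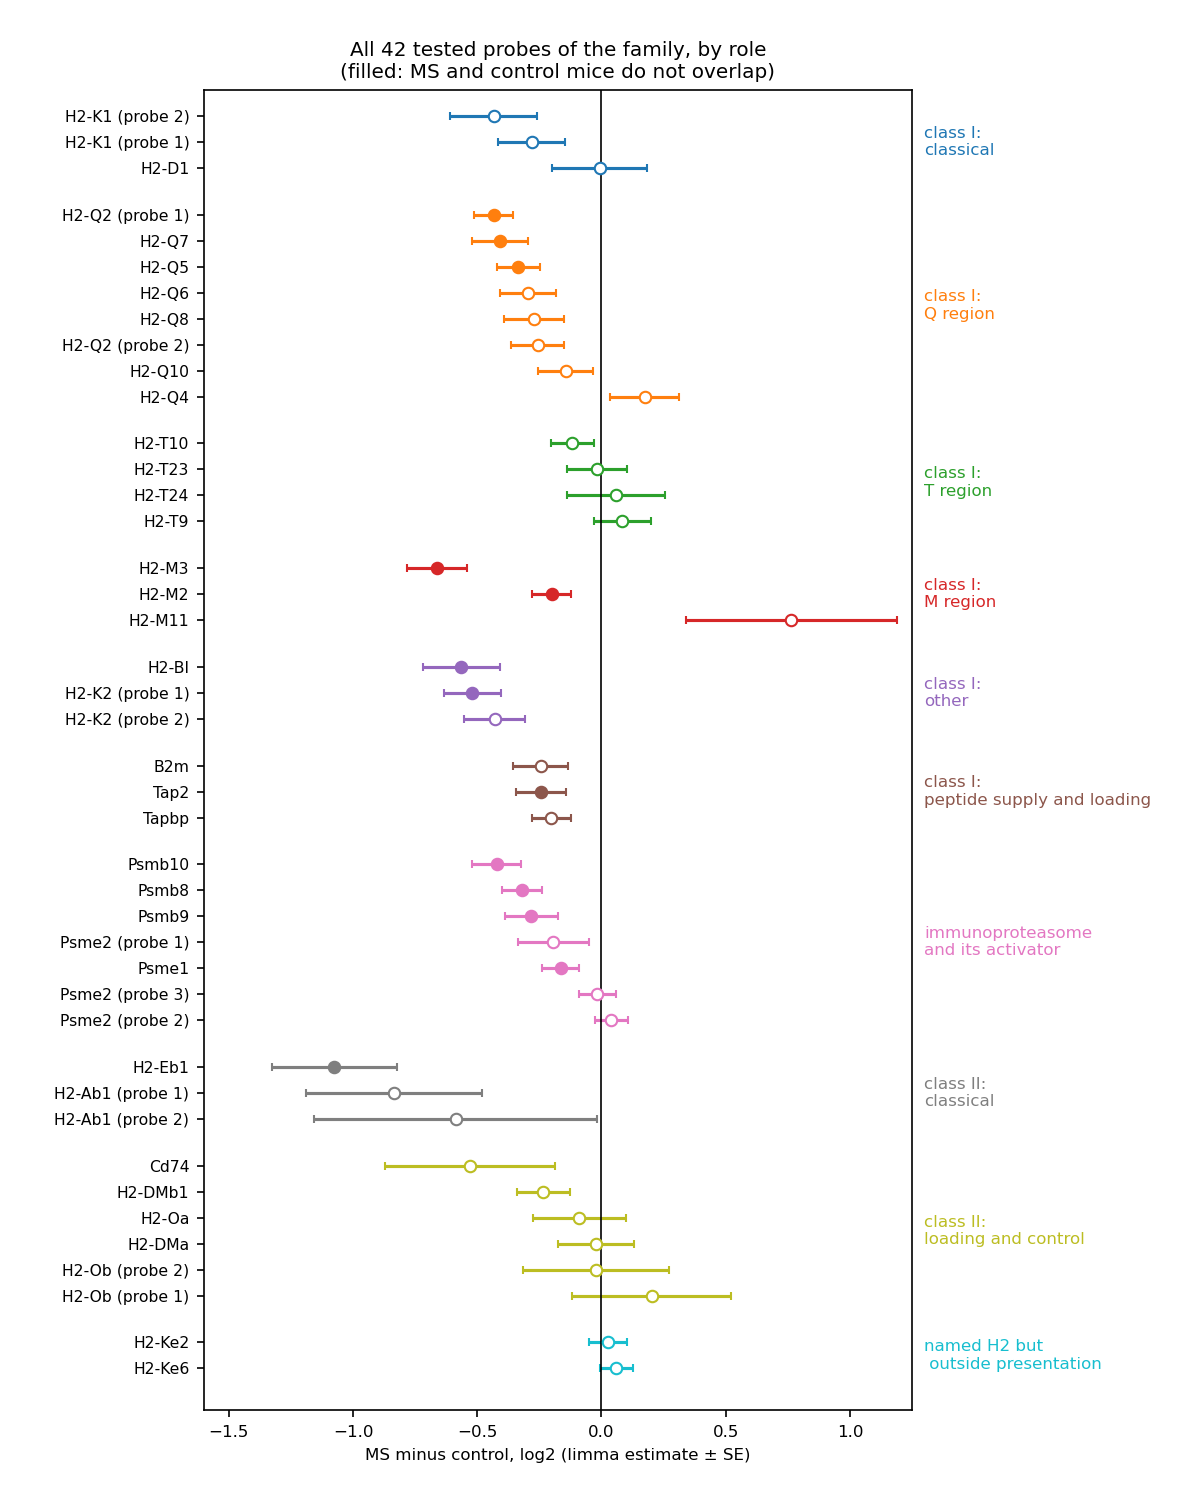
Each of the 42 tested probes is a point at its limma difference MS minus control on the log2 scale (x axis) with its SE, listed by gene (y axis) and coloured by role, and filled points mark probes whose MS and control mice do not overlap. Filled points occur in the Q, M and other class I genes, in peptide supply and loading, in the immunoproteasome and in class II. All of these are on the negative side, while the 4 genes named H2-T lie near 0.

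Class I promoters carry a compact set of known elements, and the RefSeq promoters (assembly GRCm38.p6, C57BL/6J) of 38 of the 52 genes were searched on both strands. The elements were the κB core of enhancer A (GGGATTCCC), the interferon response element beside it (TTTCACTTC), the interferon response element of B2m (GAAANNGAA), the X2 core TGACG, the inverted CCAAT box ATTGG and, for class II, the start of the X box (AGCAACNGA), and they did not overlap one another in the stretches shown. The promoters of the classical genes H2-K1 and H2-D1 are shown for their shared layout, H2-M3 because it was the tested class I gene with the lowest percent of control, and B2m and H2-Eb1 because they stand for the light chain and for class II. Elements on the printed strand are in capitals.
H2-K1 (chr17:34000344-34000463, minus strand): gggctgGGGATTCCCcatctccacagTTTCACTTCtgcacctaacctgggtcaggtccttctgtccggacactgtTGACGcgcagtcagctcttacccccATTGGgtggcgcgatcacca
H2-D1 (chr17:35262919-35263038, plus strand): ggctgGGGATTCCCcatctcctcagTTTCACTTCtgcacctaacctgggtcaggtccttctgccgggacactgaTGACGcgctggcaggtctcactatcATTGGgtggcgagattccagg
H2-M3 (chr17:37270104-37270223, plus strand): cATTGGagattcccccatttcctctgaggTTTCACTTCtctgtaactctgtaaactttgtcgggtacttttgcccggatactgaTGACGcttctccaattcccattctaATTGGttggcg
B2m (chr2:122147537-122147656, plus strand): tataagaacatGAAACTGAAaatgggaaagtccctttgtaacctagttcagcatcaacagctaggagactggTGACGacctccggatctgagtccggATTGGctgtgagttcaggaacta
H2-Eb1 (chr17:34305747-34305836, plus strand): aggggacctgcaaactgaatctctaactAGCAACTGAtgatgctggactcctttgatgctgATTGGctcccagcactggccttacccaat
H2-K1 and H2-D1 held the same 4 elements in the same order, and H2-M3 held 3 of them, with a further ATTGG at the head of its stretch. GGGATTCCC was in 4 of the 38 member genes (H2-K1, H2-D1, H2-Q6 and H2-Q7) and in 0.353% of all 32851 promoters, TTTCACTTC in 7 of the 38 and 0.505% of all, and TGACG with ATTGG starting 15 to 35 bases after it in 6 of the 38 and 0.743% of all. GAAANNGAA was in 3 of the 38 (B2m, H2-T23 and Psme1) and 8.56% of all promoters, and AGCAACNGA in 2 of the 38 (H2-Eb1 and H2-Eb2) and 1.34% of all. TGACG alone was in 20.8% and ATTGG alone in 37.4% of all promoters. The 7 genes with TTTCACTTC had differences of -0.01 (H2-D1), -0.28 (H2-K1), -0.66 (H2-M3), -0.14 (H2-Q10), 0.17 (H2-Q4), -0.30 (H2-Q6) and -0.41 (H2-Q7). Only H2-Q4 was above 0, with an SE of 0.14, and a link between the element and the differences was not tested.

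Of the 3 tested genes of peptide supply and loading, 2 were lower at an unadjusted p under 0.05, against 7.71% of all tested probes. None passed after adjustment. B2m, on 2 spots, read 1.70, 1.88, 1.96 and 1.93 in MS mice, against 2.08, 1.85, 2.25 and 2.27 in control mice. Control replicate 2 lay among the MS mice, and the difference of -0.24 (SE 0.11, unadjusted p = 0.0573, adjusted p = 0.374) left B2m at 84.4% of the control level. Tap2 read 0.20, 0.05, 0.19 and 0.18 in MS mice, against 0.28, 0.31, 0.33 and 0.69 in control mice. The groups were apart by a narrow margin (-0.24, SE 0.10, adjusted p = 0.337), and the difference was -0.15 without control replicate 4. Tapbp read 0.22, 0.35, 0.05 and 0.23 in MS mice, against 0.48, 0.34, 0.38 and 0.46 in control mice, with MS replicate 2 above control replicate 2 (-0.20, SE 0.080, adjusted p = 0.314). Tap1 was too dim to test. It was well above background on 0 of 4 MS arrays and 2 of 4 control arrays. With MS arrays raised to at least the lowest signal well above background, the control mean was 1.22 times the MS mean. This is not a strict bound, since 2 control arrays were not above background either, and the groups overlapped at control replicate 2. Its measured log2 levels were -5.33, -5.29, -5.51 and -5.67 in MS mice, against -4.82, -5.41, -4.82 and -4.26 in control mice, and its 10 spots differed by an SD of up to 0.51 within an array.

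Of the 5 immunoproteasome and activator genes, 4 were lower in MS mice without overlap and 3 were lower at an unadjusted p under 0.05. The shares of all tested probes were 4.91% and 7.71%. Psmb10, its trypsin-like subunit, read 3.64, 3.70, 3.81 and 3.52 in MS mice, against 4.21, 4.05, 3.90 and 4.20 in control mice. No MS mouse reached the lowest control mouse (-0.42, SE 0.097, adjusted p = 0.129), and the difference was -0.46 and -0.38 within the slide rows. Psmb8 read -1.80, -1.84, -1.89 and -1.92 in MS mice, against -1.55, -1.71, -1.41 and -1.51 in control mice. The groups were apart again (-0.32, SE 0.080, adjusted p = 0.152), and the difference was -0.20 with the deposited values. Psmb9 read -1.76, -1.59, -1.66 and -1.62 in MS mice, against -1.54, -1.54, -1.13 and -1.28 in control mice, with the highest MS mouse just under the lowest control mouse (-0.28, SE 0.11, adjusted p = 0.294). Psme1, a subunit of the proteasome activator PA28, was lower without overlap by a smaller amount (-0.16, SE 0.074, adjusted p = 0.371). Its partner Psme2 gave 0.04, -0.02 and -0.19 in 3 probes, which differ in sign. Averaged over the 5 genes, the deviation from the mean of all mice ranged from -0.13 to -0.09 in MS mice and from 0.02 to 0.17 in control mice. Of the constitutive proteasome, which every cell carries, 0 of 6 standard catalytic subunits and other activators and 0 of 7 alpha subunits were lower at an unadjusted p under 0.05, with medians of 0.00 and -0.06, and the difference from the immunoproteasome was not tested.

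**Figure D3:**
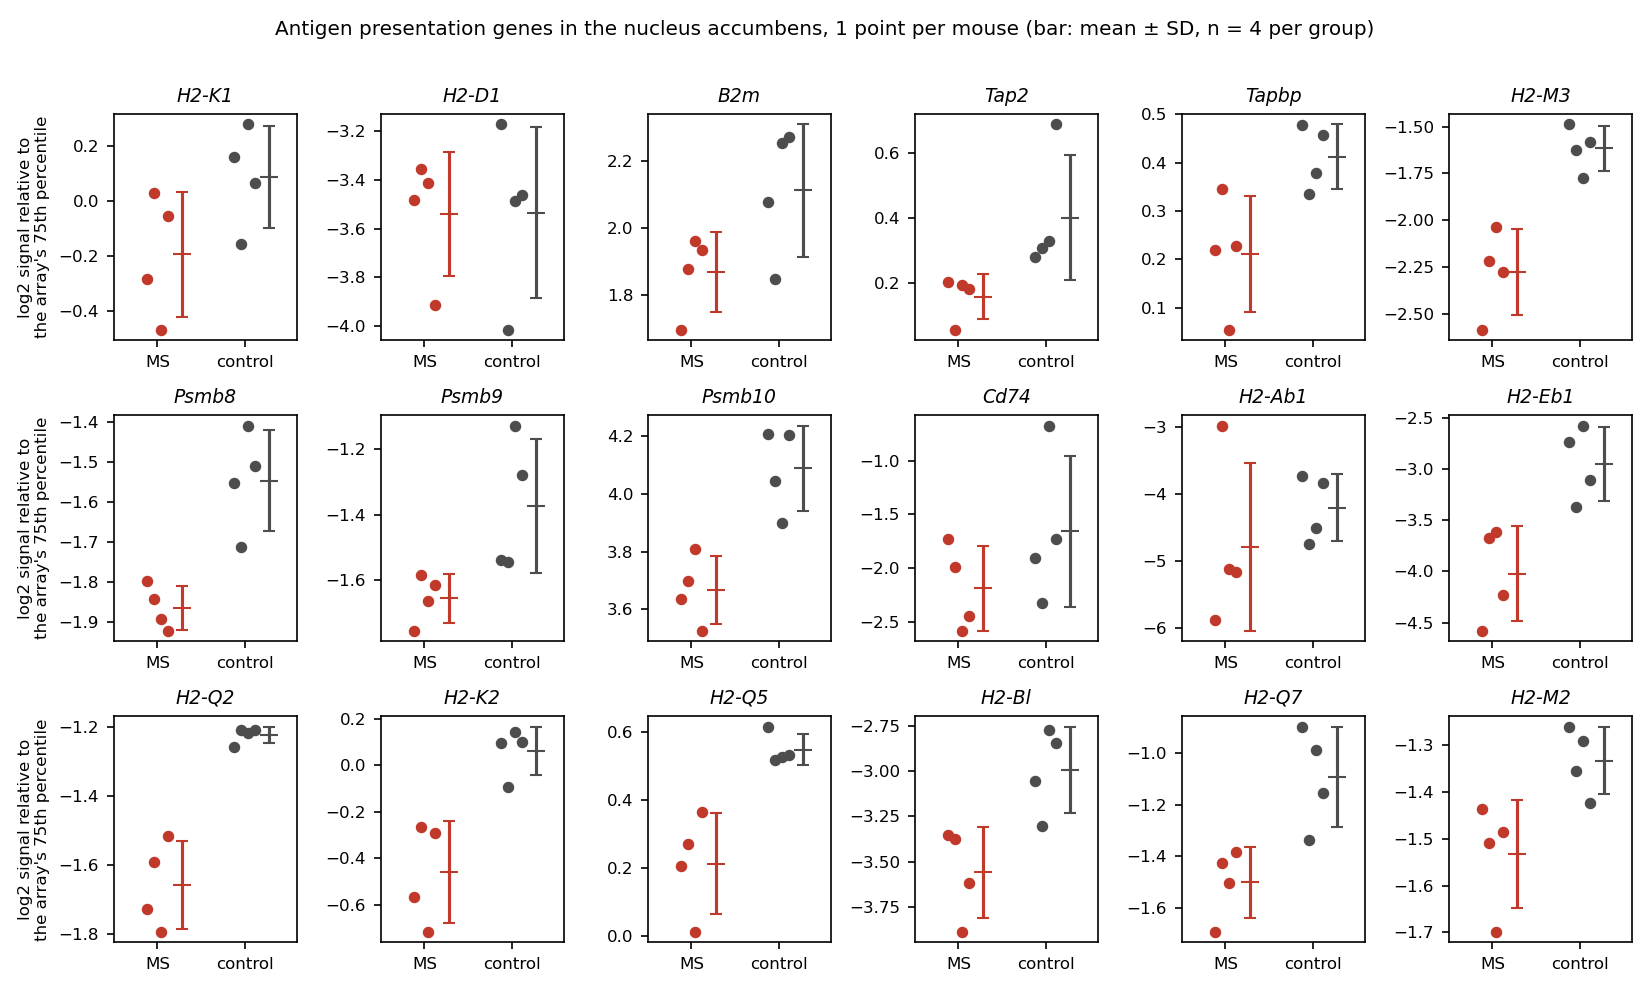
Each panel shows 1 gene with the log2 level relative to the array's 75th percentile (y axis) of the 4 MS mice (red) and 4 control mice (grey), and the bar beside them is the mean ± SD. H2-Q2, H2-Q5, H2-M3, H2-K2, Psmb10 and Psmb8 are apart between the groups, H2-D1 is not, and Cd74 and H2-Ab1 overlap widely. The H2-Q2 panel shows the dimmer H2-Q2 probe, not the brighter one, whose groups overlapped.

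Of the 7 tested class II genes, 1 was lower at an unadjusted p under 0.05, against 7.71% of all tested probes. H2-Eb1, a classical β chain, read -4.58, -3.67, -3.61 and -4.23 in MS mice, against -2.74, -3.37, -2.57 and -3.11 in control mice. The mice did not overlap, and the mean was 47.5% of the control level (-1.07, SE 0.25, adjusted p = 0.135), with -1.07 and -1.08 within the slide rows, but -0.37 with normexp background correction and -0.43 with the deposited values. H2-Ab1, the other classical β chain, was represented by a probe above background on 1 MS and 4 control arrays, so that it passed the filter mainly through the control group, and it read -5.88, -2.97, -5.12 and -5.16 in MS mice, against -3.72, -4.74, -4.50 and -3.84 in control mice. MS replicate 2 was above every control mouse (-0.59, SE 0.57, adjusted p = 0.695). The difference was -1.19 without that mouse, -0.22 without MS replicate 1, -0.10 with normexp background correction and -0.06 with the mice numbered 7 or 8 alone. The other H2-Ab1 probe, above background on 1 MS and 3 control arrays, gave -0.84 (SE 0.35, adjusted p = 0.342). The 2 probes overlap in position and share a run of 41 bases, of which the last 24 are in capitals here with the 6 bases after them.
H2-Ab1, other probe (mm9 chr17:34406305-34406363): ACCTAGATTACAAATAAACGAGACccagac
H2-Ab1, probe with values per mouse (mm9 chr17:34406296-34406355): ACCTAGATTACAAATAAACGAGACtcagac
Cd74, the invariant chain, read -1.73, -1.99, -2.58 and -2.45 in MS mice, against -1.90, -2.33, -0.67 and -1.73 in control mice. The difference of -0.53 (SE 0.34, adjusted p = 0.536) was not the same in both rows of the slide, at 0.25 in the first and -1.31 in the second, and was -0.20 without control replicate 3. The peptide exchange chains H2-DMa (-0.02) and H2-DMb1 (-0.23) and the DM regulators H2-Oa (-0.09) and H2-Ob (-0.02 and 0.20 in 2 probes) had 0 genes lower at an unadjusted p under 0.05. H2-Aa, the partner chain of H2-Ab1, was above background on 1 MS array alone, with -7.19, -4.60, -6.93 and -7.10 in MS mice, against -7.32, -6.93, -6.77 and -7.44 in control mice. Ciita, the master regulator of class II transcription, was above background on 1 MS and 1 control array, and read -4.90, -5.08, -4.56 and -1.63 in MS mice, against -6.13, -5.42, -5.13 and -3.69 in control mice. The Ciita probe shared 26 bases with a Tenm1 probe and 22 with a Cbln2 probe, so its signal is uncertain as to its gene. The probe named H2-Ea-ps, now H2-Ea, was above background on no array, and its match to the H-2k sequence was not tested. H2-Ke2, now Pfdn6, and H2-Ke6, which carry the H2 name but are not presentation genes, differed by 0.03 and 0.06.

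**Figure D4:**
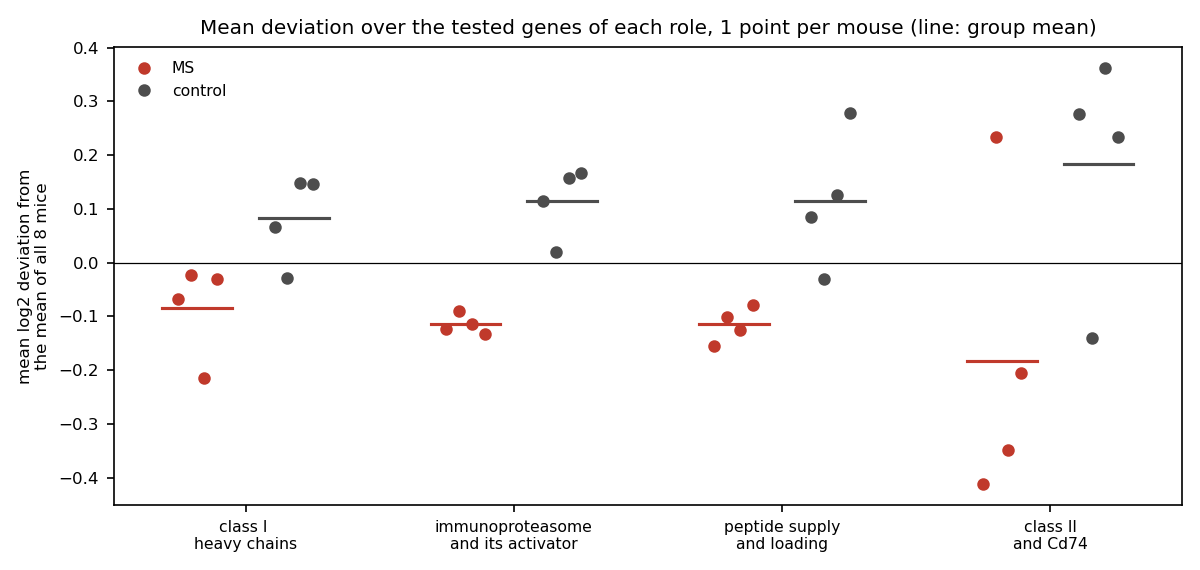
For each of 4 roles (x axis) the y axis gives the mean log2 deviation of the tested genes from the mean of all 8 mice, with 1 point per mouse, MS in red to the left of control in grey, and a line at each group mean. The immunoproteasome and the peptide supply genes are apart between the groups, the class I heavy chains overlap narrowly at control replicate 2, and class II overlaps through MS replicate 2 and control replicate 2.

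Other genes of the pathway were counted in lists drawn up for each step. Over all tested probes, 7.71% were lower and 6.35% higher at an unadjusted p under 0.05, and several counts here are small. Of 10 tested loading chaperones and peptide trimming genes, 1 was lower at an unadjusted p under 0.05, the peptide editor Tapbpl (-0.31, SE 0.076, adjusted p = 0.144), and 0 were higher. The chaperones calreticulin (Calr, 0.12, SE 0.10) and Pdia3 (0.07, SE 0.11) were a little higher in mean with overlapping groups. The 22 regulators of MHC transcription had a median difference of -0.02, and Stat2, a transducer of interferon signals, was higher without overlap (0.16, SE 0.070, unadjusted p = 0.0455, adjusted p = 0.346). Nlrc5, the transactivator of class I genes, had 0.46 (SE 0.29, adjusted p = 0.523), and Irf1 had -0.23 (SE 0.11, adjusted p = 0.406). Of 23 tested interferon-stimulated genes, 2 were lower and 0 higher, with a median of -0.15, and the named one was Irgm1 (-0.29, SE 0.085, adjusted p = 0.195). Of 8 class II proteases and handling genes 3 were lower, Lgmn (-0.27, SE 0.066), Ctsd (-0.21, SE 0.073) and Ctss (-0.31, SE 0.10), with adjusted p of 0.143, 0.251 and 0.248. Of 7 tested class I-like genes outside the MHC 3 were lower, the lipid-presenting Cd1d1 (-0.73, SE 0.17, adjusted p = 0.136), the IgG receptor chain Fcgrt (-0.19, SE 0.067, adjusted p = 0.275) and Hfe (-0.33, SE 0.14, adjusted p = 0.349).

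On chromosome 17 the neighbours of these genes were set beside them. Between the first and the last member probe (mm9 chr17:34065963-37618439), 153 tested probes of 123 other genes had a median difference of 0.01, with 14 lower (9.15%) and 5 higher at an unadjusted p under 0.05, against 101 of 1455 tested probes lower (6.94%) on the rest of the chromosome. This set was defined by name and can hold class I sequence without an H2- name. Among its probes with the lowest p, Gm8909 gave -1.81 (SE 0.43, adjusted p = 0.136) between the H2-T9 and H2-T3 probes. Unnamed probes in the same stretch gave -0.40 (SE 0.065, adjusted p = 0.0743) and -0.34 (SE 0.12, adjusted p = 0.251). The latter shared 16 bases with the H2-Q5 probe, and other probes of this stretch are not reported here. Complement C2, a neighbour in the class III region, was between -3.10 and -2.02 in MS mice, against -0.93 to 0.02 in control mice (-2.03, SE 0.27, adjusted p = 0.0633). Complement C4b gave -0.26 (SE 0.18, adjusted p = 0.568). Class III complement and cytokine genes had 2 of 5 tested lower, C2 and Lta (-0.54, SE 0.18, adjusted p = 0.238). Of the members on other chromosomes, B2m (chromosome 2, -0.24), Psmb10 (chromosome 8, -0.42) and Psme1 (chromosome 14, -0.16) were lower in mean, and the brightest Psme2 probe (chromosome 14, 0.04) was not.

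Cell type markers also differed between the groups, and their part in the results was not tested. The counts below stand against 7.71% of all tested probes lower and 6.35% higher at an unadjusted p under 0.05. Since levels cannot be compared between probes, the summed signal of a list follows mainly its brightest probes and can differ from its other markers. Of 14 microglia markers 13 were lower in mean, with a median difference of -0.16. An unadjusted p of 0.05 was passed by 2, Tyrobp and Ctss, which is also counted above. The summed signal of the 14 was 124 to 134 in MS mice and 126 to 151 in control mice, in multiples of the array's 75th percentile. The brightest marker, Itgam, was the 1 that was not lower (0.12), and 2 of its 3 tested probes had the opposite sign to that. Of 5 tested border macrophage markers, Ms4a7, above background on 5 of the 8 arrays, gave -1.03 (SE 0.29, adjusted p = 0.185), Mrc1, Cd163 and Lyve1 were dim, and the sums were 0.743 to 0.860 in MS mice and 0.783 to 0.965 in control mice. Of 10 astrocyte markers 8 were lower in mean and 5 at an unadjusted p under 0.05, with a median difference of -0.20. Astrocyte sums did not overlap, at 288 to 311 in MS mice and 321 to 369 in control mice. At the same threshold, 7 of 9 pallidal neuron markers were lower and 1 higher, with a median difference of -1.24. The lower ones with the lowest p were Lhx8 (-0.92), Npas1 (-2.26), Vamp1 (-1.24) and Kcnc2 (-1.45). Pallidal sums were 44.3 to 49.5 in MS mice and 49.0 to 51.3 in control mice, and rested mainly on the bright Kcna1 (0.32, the 1 higher) and Etv1 (0.05). All 12 medium spiny neuron markers were higher in mean and 5 passed the threshold, with a median difference of 0.31. Their sums were 999 to 1214 in MS mice and 710 to 1069 in control mice. Of 12 blood vessel markers 5 were lower in mean and 1 passed, with sums of 44.7 to 51.1 in MS mice and 43.6 to 48.3 in control mice.

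Of the 18 named genes that were tested, 17 kept their direction in each alternative that gave them a value, H2-D1 being the exception. H2-Ab1 had no value under the filter on all 8 arrays and H2-Bl none in the deposited table. H2-M3, H2-Q2, H2-K2 and Psmb10 passed an adjusted p of 0.05 in 3 of the 12 alternatives that kept the mice or a labelled subset of them, namely with normexp background correction, with the authors' deposited values and with a variance trend and robust moderation, and in the last of these H2-Eb1 passed as well. In those analyses 1.48%, 1.2% and 1.52% of all tested probes passed. The H2-Q2 result here is that of its dimmer probe, and the brighter H2-Q2 probe, which stands for the gene in counts by gene, passed in none of the 3. For H2-M3 the adjusted p ranged from 0.0172 to 0.288 over the 12 alternatives, and the difference from -0.67 to -0.41.

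**Figure D5:**
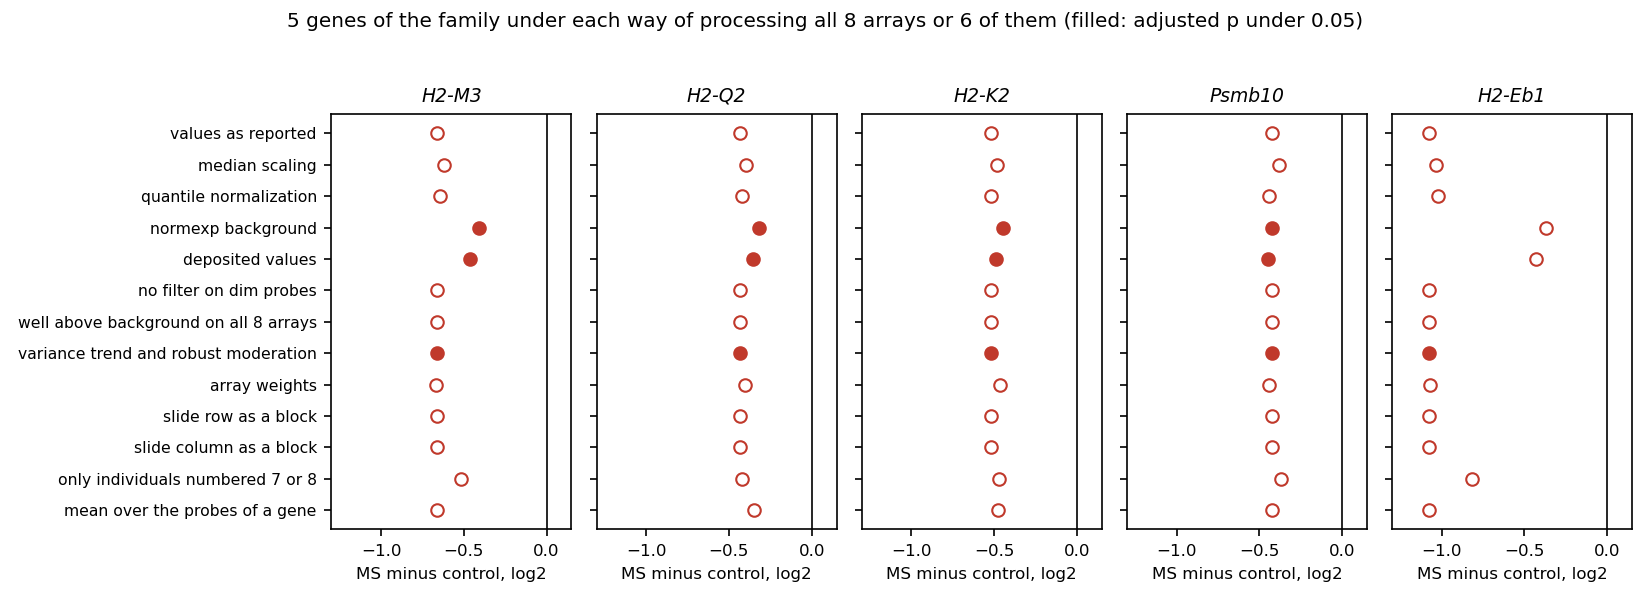
The x axis of each panel is the difference MS minus control of 1 gene on the log2 scale, and the y axis lists the values as reported and 12 alternative ways of processing, with filled points where limma's adjusted p is under 0.05. All points are negative, 13 of them are filled, and H2-Eb1 is nearest to 0 with normexp background correction (-0.37) and the deposited values. The H2-Q2 panel shows the dimmer H2-Q2 probe.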

How the data were processed

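The arrays were Agilent mouse arrays of 1 colour, 1 per mouse, hybridised with Cy3-labelled cRNA from 40 ng of RNA. The deposited scanner files give linear intensity per spot from Feature Extraction 10.10.1.1, whose processed signal is already corrected for background. A second deposited table holds log2 levels of 31261 probes, which followed the log2 mean signal of each array without background subtraction, with correlations of at least 0.9997 across probes and column medians of about 8.01. Its scale and direction are thus settled, while its normalization between arrays is not given in the sources used here. The headers and the methods name different array designs, and probe names and mm9 coordinates are those of the headers. Names were updated through the RefSeq gene table of GRCm38.p6, with 27229 probes matched by accession, 3586 by current symbol, 565 by an older symbol, and 24301 left with the design's name.

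Control spots and 122 to 189 outlier spots per array were left out, spots of a probe were averaged, and 24 probes lacked a value on an array. The value was the log2 processed signal minus the array's 75th percentile over spots. Probes clearly over background on 4 or more of the 8 arrays were fitted with limma 3.58.1 (lmFit, eBayes) in R 4.3.3, and p-values were adjusted over 33111 probes at a threshold of 0.05. The labels give each mouse its own number, and 3 of the 4 mice in each group share the digit before the point, 7 in MS and 8 in control mice. Whether it marks a litter or a cage is not given in the sources used here. If it does, mice that share it are not independent and p-values are too small. No digit occurs in both groups, so such an effect could not be told apart from MS. The mice numbered 7 or 8 alone set the digit 7 against the digit 8. The number of arrays limits the precision. The step was tested on simulated data. Members and lists were chosen with earlier results of these data known. Genes were named by a rule: 15 core genes whatever their result, further member probes with an unadjusted p under 0.05 and no overlap, and from each other list up to 4 such genes, plus those named for their role, and others are given where a count is small. The brightest tested probe stood for a gene. The ratio for Tap1 set the mean of all 4 control arrays against, per MS array, the higher of the probe's signal and the lowest signal well above background. The alternatives were other scalings, background corrections, filters, variance models and array weights, the slide row or column as a block, mice numbered 7 or 8 alone, the mean over probes, and leaving out each array. Some genes of the lists are not reported here.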

Additional observations from a re-analysis of the deposited data

Results flagged for a closer look

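In 6 of 50 groups of 4 mice examined (25 probes or scores in each group), 1 mouse lay far from the other 3, where chance alone gives about 1 in 20. MS replicate 2 had a Tap2 level of 0.0539 while the other MS mice were at 0.18 to 0.20, and control replicate 4 had a Tap2 level of 0.687 while the other control mice were at 0.28 to 0.33. MS replicate 2 had an H2-Aa level of -4.60, the 1 array on which that probe was above background. MS replicate 4 had a Ciita level of -1.63, on a probe that shares runs of bases with probes of other genes. Control replicate 1 was apart for the dimmer H2-Q2 probe at -1.26 and for H2-Q5 at 0.617, although the spread among the other control mice was small for both probes.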

How the results depend on the processing

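Of all probes, 1 was called as reported, against 81 with median scaling, 490 with normexp background correction, 375 with the deposited values, 504 with trended, robust moderation of the variance, 113 with probes above background on all 8 arrays, 77 with array weights, 9 with probes averaged per gene, and 0 with no filter, with the slide column as a block and with the mice numbered 7 or 8 alone. Leaving out 1 array gave 0 to 37 calls, the 37 without control replicate 3. Members called were 0 as reported, 4 with normexp, 4 with the deposited values and 5 with the variance trend, and 0 in every analysis that left out 1 array. The median difference of the class I heavy chains was -0.23 as reported, -0.14 with normexp and -0.093 with the deposited values, between -0.24 and -0.19 in the other alternatives, and between -0.25 and -0.17 when 1 array was left out. H2-D1 changed sign with median scaling (0.0315), quantile normalization (0.0417), the deposited values (0.0386), the mice numbered 7 or 8 alone (0.0934) and 1 array left out (from -0.17 to 0.12, positive without control replicates 1, 3 and 4 and without MS replicate 4). The cause of these changes was not tested. Members lower at an unadjusted p under 0.05 numbered 11 to 20, with 12 under median scaling. No paired analysis was possible because the numbers of the mice do not pair MS with control mice. Dim probes such as H2-Ab1, Tap1 and H2-Aa are limited by signal over background.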
